A study of Mus musculus with 9 samples.

Results

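The nuclear genes of the respiratory chain were followed through 3 stages of a mouse culture: embryonic stem (ES) cells, definitive endoderm (DE) and anterior foregut (AFE). The genes were taken by symbol: every probe of an Nduf, Uqcr or Atp5 gene, of Sdha to Sdhd, or of a gene beginning with Cox4, Cox5, Cox6, Cox7 or Cox8. This gave 107 of the 25697 probes on the array and 85 of its 16593 named genes. Of the 85 genes, 78 passed the filter on dim probes and were tested among 10251 genes. By complex they are 32 of complex I, 3 of complex II, 6 of complex III, 14 of complex IV and 16 of complex V. Another 5 assemble complex I (Ndufaf1, Ndufaf3, Ndufaf4, Ndufaf5 and Ndufaf7), Ndufa4 is kept apart since its product was later placed in complex IV, and Ndufs5-ps is a pseudogene that can take signal from its parent gene. The 7 genes that did not pass are Ndufs1, Uqcrfs1, Uqcrq, Cox6a2, Cox7b2, Cox8b and Cox8c. Sdha was not analysed here.

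Labelled RNA of 9 samples, 3 a group, was hybridised to Illumina bead arrays, on which a gene is read by 1 or more probes. Per the labels, the ES cells are of 129P2/OlaHsd background and carry no reporter, the DE cells come from R1 ES cells, a cross of 129X1/SvJ with 129S1/SV-+p+Tyr- cKitlSl-J/+, and the AFE cells from a 129X1/SvJ line. All lines were kept on mouse embryonic fibroblasts in serum with LIF, and cells were sorted by flow cytometry before RNA extraction. For DE, cells depleted of feeders received the ROCK inhibitor Y-27632, then GSKiXV and IDE-1, a small molecule inducer of endoderm. For AFE they were replated with Y-27632 and given A83-01 and LDN193189, which inhibit receptors of the TGF-beta and BMP families. Each stage came from another line, so strain, line and stage cannot be told apart. Nothing says that replicates are separate cultures, so the spread between arrays behind each p-value need not be that between cultures.

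Complex I takes electrons from NADH and complex II from succinate, both pass them through ubiquinone to complex III, and cytochrome c carries them on to complex IV, which reduces oxygen. Complex V, the ATP synthase, uses the resulting proton gradient to make ATP. Most subunits are encoded in the nucleus and must be made in step with the few encoded in the mitochondrion. Several complex IV subunits exist as isoforms that are typical of heart and skeletal muscle, lung or testis. Pluripotent cells are known for a strong glycolytic component of their energy metabolism.

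The nuclear genes of the chain share promoter elements for the factors NRF1, GABPA (an ETS factor), YY1 and the ERR receptors, and 4 promoters are printed here since they belong to genes on which the results turn. Cox7a1, the muscle isoform, fell most in AFE, and Cox7a2 is its widely expressed counterpart. Ndufaf4 fell most in DE, and Sdhd belongs to complex II, in which 0 of 3 tested genes were called in any comparison (beside 23% to 43.9% of all genes). Each run is the 250 bases before the start site in RefSeq (GRCm38.p6), 5′ to 3′ on the strand of the gene. Capitals mark matches to the NRF1 motif (the first run of capitals in Ndufaf4 and in Sdhd, in which the base after the A may be any) or to CCGGAAG (ETS) on either strand. Windows lie at chr7:30183921-30184170 (plus strand) for Cox7a1, chr9:79759854-79760103 (minus) for Cox7a2, chr4:24897833-24898082 (plus) for Ndufaf4 and chr9:50603850-50604099 (minus) for Sdhd.
Cox7a1: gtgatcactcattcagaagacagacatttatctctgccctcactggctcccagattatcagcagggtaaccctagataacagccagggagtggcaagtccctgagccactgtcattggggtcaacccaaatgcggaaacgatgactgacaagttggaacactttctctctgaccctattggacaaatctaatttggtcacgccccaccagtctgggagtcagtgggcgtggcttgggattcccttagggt
Cox7a2: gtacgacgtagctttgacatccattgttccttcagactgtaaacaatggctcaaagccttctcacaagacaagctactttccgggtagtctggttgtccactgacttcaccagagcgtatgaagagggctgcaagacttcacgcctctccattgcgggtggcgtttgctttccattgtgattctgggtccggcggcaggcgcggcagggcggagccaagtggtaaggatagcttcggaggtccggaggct
Ndufaf4: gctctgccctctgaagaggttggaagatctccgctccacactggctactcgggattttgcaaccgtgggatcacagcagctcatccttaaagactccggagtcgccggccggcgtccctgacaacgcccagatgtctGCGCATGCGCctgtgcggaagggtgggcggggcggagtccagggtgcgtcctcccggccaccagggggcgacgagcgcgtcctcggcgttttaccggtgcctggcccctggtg
Sdhd: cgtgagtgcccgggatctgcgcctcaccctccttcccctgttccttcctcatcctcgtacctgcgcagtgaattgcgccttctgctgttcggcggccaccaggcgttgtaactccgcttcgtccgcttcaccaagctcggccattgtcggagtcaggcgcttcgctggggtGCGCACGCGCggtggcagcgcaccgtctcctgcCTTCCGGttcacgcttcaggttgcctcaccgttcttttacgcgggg
The Cox7a1 window is 51.2% G and C with 4 CpG sites, and holds 0 of the 4 motifs searched. The Cox7a2 window is 54.8% G and C with 14 CpG sites and also holds 0. The Ndufaf4 window (66.4%, 23 CpG sites) has an NRF1 match starting at position -113, and the Sdhd window (64.4%, 27 CpG sites) has an NRF1 match at -79 and an ETS match at -46, counted from the start site.

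Of the 85 genes, 70 had a promoter window of 300 bases (250 before to 50 after the start). Over all 27025 genes with a window, 5.19% held the NRF1 motif, 9.93% CCGGAAG, 1.64% AAGATGGCG (YY1) and 0.466% TCAAGGTCA (ERR) on either strand. Among the 67 tested chain genes with a window, 16 held the NRF1 letters (23.9%, against 11.1% of 8310 tested genes), 17 the ETS letters (25.4% against 19.2%), 7 the YY1 letters (10.4% against 3.39%) and 2 the ERR letters (2.99% against 0.325%). No matches of different motifs overlapped in these windows. Of the 15 genes with a window that differed among the 3 groups, 4 held the NRF1 letters, and of the 52 that did not pass, 12 did. A match describes letters and not binding, and these shares carry no test.

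The arrays matched their labels in most markers. Summed normalized intensities of 5 ES cell genes were 33590 to 38024 on ES arrays and 221 to 836 on the others. The 5 endoderm genes summed to 21029, 21116 and 8226 on DE 1, 2 and 3, and the 5 foregut genes with a probe to 150 to 182 on ES arrays, 806 to 1479 on DE arrays and 3369 to 3952 on AFE arrays. Of the 4 foregut genes tested in AFE against DE, Isl1 rose, Foxa2, which marks endoderm too, fell, and Nkx2-5 was not called. Pax1 also rose, but was above background on 0 ES, 0 DE and 3 AFE arrays. It was thus tested only through its AFE arrays, where it is high. DE 3 differed from its replicates: 6 endothelial genes summed to 22034 there, with 5 above background, against 374 and 330 on DE 1 and 2, with 3 and 2 above background. AFE 3 carried 15569 in 7 muscle genes, against 2467 and 3448 on AFE 1 and 2. On the log2 scale Acta1 (13.28 on AFE 3 against 8.57 and 11.13) and Actc1 (11.79 against 8.03 and 8.43) were the brightest there. Tnnc1, Myl7 and Myog were also highest on AFE 3 of the AFE arrays, Myog barely. Myl4 was lowest on AFE 3 (6.54 against 8.78 and 7.08), and Des lay between its replicates (7.24 against 7.54 and 6.94). The 7 fibroblast genes, which feeders express, summed to 3843, 3619 and 7929 on ES 1, 2 and 3, to 224 to 621 on DE arrays and to 268 to 1528 on AFE arrays, with 5 to 6 above background on ES and 2 to 6 on the other arrays. Thy1 was the brightest of them on each ES array (11.34, 11.20 and 11.95) and at 4.46 to 5.10 on AFE arrays. Col1a1 and Dcn were also lower on AFE 1 and 2 than on ES 1 and 2. Col3a1 (9.49 and 8.56 against 7.44 and 7.53) and Lum (7.99 and 7.17 against 4.88 and 4.88) were higher on these AFE arrays. Col1a2 overlapped, and Postn was not above background on any array. The part of the fibroblast genes in the changes from ES was not tested. Per the labels, ES 3 lay on another slide than the other 8 arrays, and its brightest probe read 31876 against 52240 to 60661 elsewhere. Slide and sample cannot be told apart for ES 3. Without it, 0 chain genes rose and 6 fell in DE against ES, and 3 rose and 6 fell in AFE against ES. Over all genes these counts were 1943 and 2018, and 2049 and 1833. Between arrays of a group, levels of all genes correlated at 0.987 to 0.995 for replicates 1 and 2 and at 0.931 to 0.979 with replicate 3. In bulk RNA, fewer cells of a type and less RNA per cell cannot be told apart.

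The chain changed little between stages compared with the array as a whole. In the moderated F-test of limma over the 3 groups, 16 of 78 chain genes (20.5%) were called at an adjusted p under 0.05, against 55.7% of all genes tested. Atp5d, Atp5pb and Cox6a1, called below between pairs of groups, are not among the 16 (F-test adjusted p = 0.0627, 0.0825 and 0.052). Chain probes are bright: with a mean level of at least 11 on the log2 scale, 8 of 55 chain genes were called (14.5%) against 50.9% of 1366 genes. Under that level it was 8 of 23 chain genes (34.8%) against 56.5% of 8885 genes. Changes were smaller in bright genes, with a median absolute change over all genes of 0.46 against 0.63 in DE against ES, and the part of brightness in the chain's low share was not tested. The range of a gene over the 9 arrays had a median of 0.78 log2 units for the chain and 1.46 for all genes. It stayed under 1 unit, a 2-fold span, in 61 of 78 chain genes (78.2%) and in 24% of all genes.

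For DE against ES, 2 chain genes rose and 6 fell, which is 10.3% of 78 beside 43.9% of all genes (22.2% rose and 21.7% fell). For AFE against DE, 4 rose and 4 fell (10.3% beside 23%, of which 12.9% rose and 10.1% fell). For AFE against ES, 5 rose and 5 fell (12.8% beside 42.1%, of which 22.8% rose and 19.3% fell). Cox4i2 is among the 5 risen and was tested only through its AFE arrays, where it is high. With detection asked for on all 9 arrays, 76 chain genes and fewer of all genes were tested. Of these, 4 chain genes rose and 7 fell in AFE against ES, beside 1898 and 1319 of all genes tested there. In the F-test 21.1% of the chain genes were called under that filter, beside 58.7% of all genes. The change was 2-fold or more, whatever its p, for 1 of 78 chain genes in DE against ES (29.8% of all genes), for 2 in AFE against DE (17%) and for 2 in AFE against ES (28.8%). The median absolute change of a chain gene was 0.22, 0.20 and 0.22 in the same order, beside 0.61, 0.41 and 0.58 over all genes. A p that misses the threshold does not show that a gene was steady, so the intervals are given too. The 95% interval of the change lay within 2-fold for 69, 66 and 66 of 78 chain genes in the same order (88.5%, 84.6% and 84.6%), and for 38.7%, 51.4% and 39.3% of all genes.

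With its sign, the median change of the chain was -0.09 for DE against ES, 0.07 for AFE against DE and -0.01 for AFE against ES, beside 0.01, 0.07 and 0.08 over all genes. Scaling arrays to 1 median in place of quantiles shifted the median of all genes in AFE against DE from 0.07 to -0.12 and that of the chain to -0.06. Under that scaling 1 chain gene rose and 2 fell in DE, 1 rose and 4 fell in AFE against DE, and 2 rose and 7 fell in AFE against ES. Over all genes these counts were 2481 and 1763, 652 and 1298, and 1764 and 2004. Small shifts shared by many chain genes therefore depend on the scaling, while no called change of a named gene changed sign under median scaling.

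**Figure D1:**
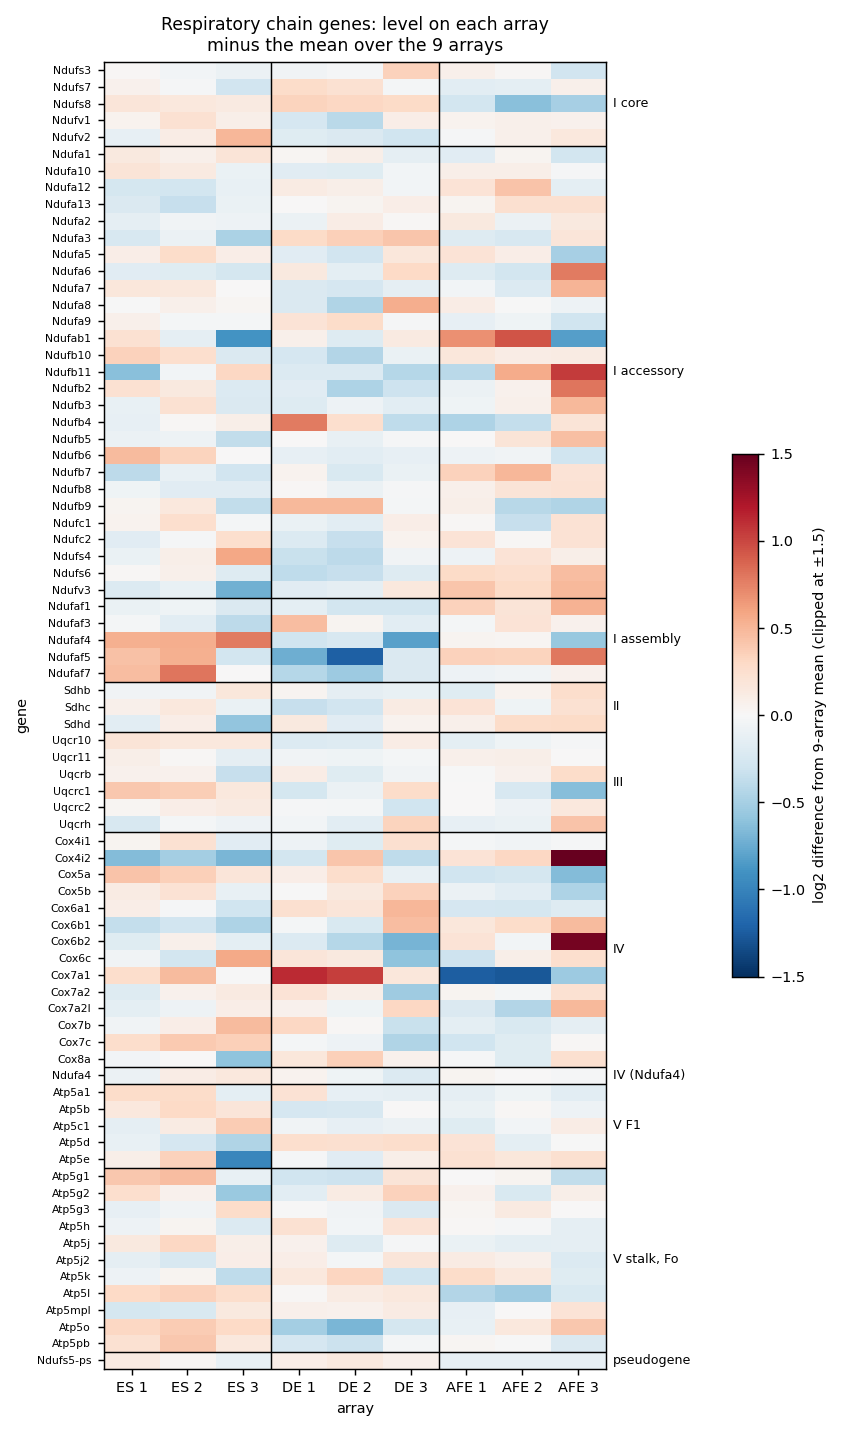
Level of each of the 78 tested chain genes (rows, grouped by complex) on each of the 9 arrays (columns), as the log2 difference from the gene's mean over the 9 arrays, with colours clipped at ±1.5. Most rows are pale; Cox7a1 is high on DE 1 and 2 and low on all AFE arrays, and Cox4i2 and Cox6b2 are highest on AFE 3.

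**Figure D2:**
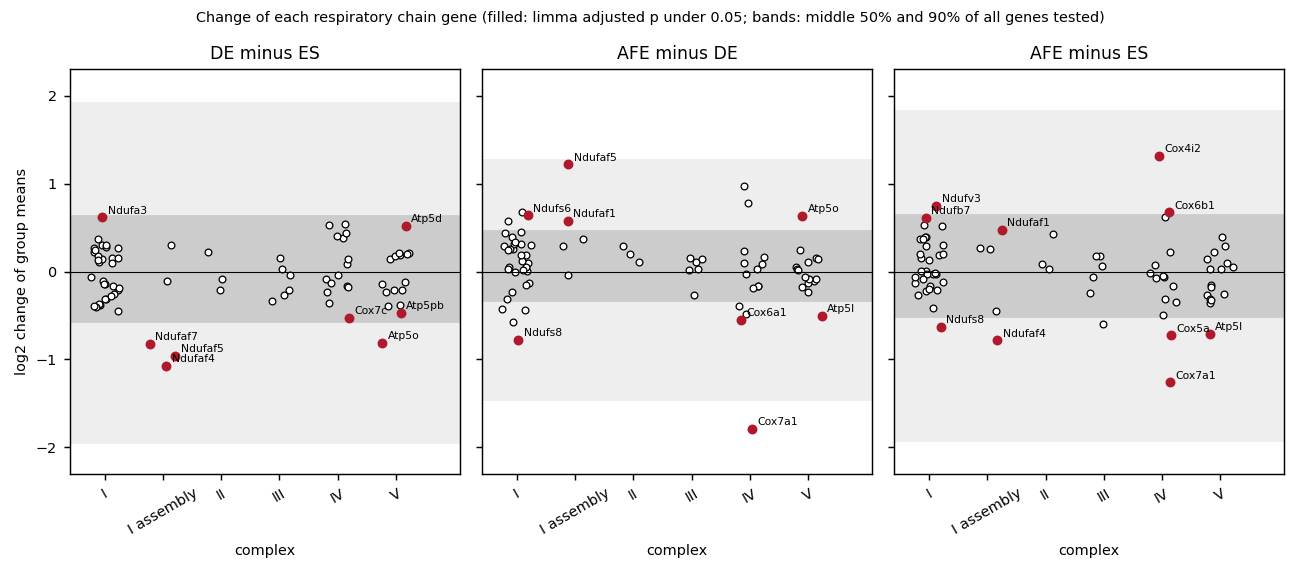
Log2 change of group means for each chain gene by complex in the 3 comparisons, with Ndufa4 drawn under complex IV and the pseudogene left out. Filled points passed limma's test at an adjusted p under 0.05, and the grey bands hold the middle 50% and 90% of all genes tested; most chain genes lie in the inner band.

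Complex I had 32 tested genes, of which 1 rose and 0 fell in DE against ES, 1 rose and 1 fell in AFE against DE, and 2 rose and 1 fell in AFE against ES. These are 3.1%, 6.25% and 9.4% called, beside 43.9%, 23% and 42.1% of all genes. Ndufs8, a core subunit that holds iron-sulphur clusters on the path to ubiquinone, stood at 11.68, 11.66 and 11.64 on ES 1, 2 and 3, 11.83, 11.81 and 11.78 on DE 1, 2 and 3, and 11.22, 10.87 and 10.99 on AFE 1, 2 and 3. The ES and DE arrays lay within a narrow span and all 3 AFE arrays lay below them. Ndufs8 fell in AFE by 0.78 ± 0.16 against DE (log2 change ± SE, limma adjusted p = 0.00774, 1.72-fold) and by 0.63 ± 0.16 against ES (adjusted p = 0.0102). Its change in DE against ES was 0.15 ± 0.16 (adjusted p = 0.474). The other 4 tested core subunits, Ndufs3, Ndufs7, Ndufv1 and Ndufv2, were called in no comparison. Their changes ran from -0.40 in Ndufv2 in DE against ES to 0.31 in Ndufv2 in AFE against DE.

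The accessory subunits, which surround the core and stabilise it, numbered 27. Ndufs6, a zinc-binding subunit near the NADH end, stood at 13.46, 13.52 and 13.25 on ES 1, 2 and 3, 13.06, 13.10 and 13.25 on DE 1, 2 and 3, and 13.73, 13.70 and 13.91 on AFE 1, 2 and 3. Every AFE array lay above every DE array, by 0.64 ± 0.16 (adjusted p = 0.02), and all 3 ES arrays lay between, ES 3 just above DE 3. Ndufa3, of the membrane arm, stood at 11.48, 11.64 and 11.25 in ES cells, 12.01, 12.08 and 12.14 in DE and 11.53, 11.48 and 11.90 in AFE. All DE arrays lay above all ES arrays, a rise of 0.62 ± 0.18 (adjusted p = 0.0219), and AFE 3 came near the DE level. Ndufb7, of the far membrane arm, stood at 8.78, 9.05 and 8.88 in ES cells, 9.22, 8.94 and 9.07 in DE and 9.51, 9.67 and 9.37 in AFE, and rose in AFE against ES by 0.61 ± 0.17 (adjusted p = 0.0166) with no overlap of the groups. Ndufv3, in the NADH-oxidising module, stood at 12.09, 12.18 and 11.58 in ES cells, 12.13, 12.16 and 12.45 in DE and 12.72, 12.58 and 12.79 in AFE, and rose in AFE against ES by 0.75 ± 0.20 (adjusted p = 0.0154). Its other 2 detected probes gave -0.20 ± 0.26 and 0.38 ± 0.19 (adjusted p = 0.571 and 0.123), so the rise of Ndufv3 rests on the brightest probe. The remaining 23 accessory genes were called in no comparison. The widest spread among them was that of Ndufab1, the mitochondrial acyl carrier protein, at 7.82, 7.45 and 6.69 in ES cells, 7.67, 7.39 and 7.72 in DE and 8.27, 8.53 and 6.76 in AFE, where AFE 3 lay more than 2-fold below its replicates.

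The 5 assembly factors build complex I and are not part of it. In the F-test 4 of 5 differed among the 3 groups, beside 5 of 32 subunits and 55.7% of all genes, differences that were not tested. Ndufaf4 was at 11.07, 11.09 and 11.32 on ES 1, 2 and 3, 10.24, 10.30 and 9.73 on DE 1, 2 and 3, and 10.59, 10.58 and 9.97 on AFE 1, 2 and 3. All ES arrays lay above all others, and Ndufaf4 fell by 1.07 ± 0.23 in DE (adjusted p = 0.00484, 2.1-fold) and by 0.78 ± 0.23 in AFE against ES (adjusted p = 0.0223). Ndufaf7, a methyltransferase that modifies a core subunit in mammals, was at 8.81, 9.15 and 8.36 in ES cells, 7.92, 7.80 and 8.13 in DE and 8.27, 8.30 and 8.42 in AFE. Its DE arrays lay below all ES arrays, a fall by 0.82 ± 0.22 (adjusted p = 0.0126). Ndufaf5, which hydroxylates another core subunit, was at 9.21, 9.30 and 8.50 in ES cells, 8.03, 7.55 and 8.55 in DE and 9.11, 9.11 and 9.56 in AFE. DE 3 and ES 3 nearly coincided, and Ndufaf5 fell by 0.96 ± 0.30 in DE against ES (adjusted p = 0.0287) and rose by 1.22 ± 0.30 in AFE against DE (adjusted p = 0.0188).

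A second Ndufaf5 probe gave the same directions in these 2 comparisons, with changes of -1.12 ± 0.17 and 0.63 ± 0.17 (adjusted p = 7.45e-04 and 0.0307). In AFE against ES the Ndufaf5 probes were of opposite sign, at 0.26 ± 0.30 (adjusted p = 0.52) and -0.50 ± 0.17 (adjusted p = 0.0435), and no direction is given. Ndufaf1, of the complex that assembles the membrane arm, was at 10.56, 10.60 and 10.45 in ES cells, 10.52, 10.39 and 10.39 in DE and 11.01, 10.85 and 11.18 in AFE. All AFE arrays lay above the rest, a rise of 0.58 ± 0.16 against DE (adjusted p = 0.0286) and 0.47 ± 0.16 against ES (adjusted p = 0.0379). Ndufaf3, a partner of Ndufaf4, was not called in any comparison, with changes of 0.31 ± 0.20, -0.04 ± 0.20 and 0.27 ± 0.20.

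Complex II, which also belongs to the citric acid cycle, had 3 tested genes and 0 calls in each comparison. Of all genes 43.9% were called in DE against ES, 23% in AFE against DE and 42.1% in AFE against ES. Sdhb, the iron-sulphur subunit, stood at 10.90, 10.90 and 11.13 in ES cells, 10.998, 10.82 and 10.85 in DE and 10.77, 11.01 and 11.22 in AFE. Sdhc and Sdhd, which anchor the complex in the inner membrane, stood at 11.95, 12.04 and 11.78 in ES cells, 11.54, 11.60 and 12.01 in DE and 12.09, 11.81 and 12.11 in AFE for Sdhc and at 10.39, 10.66 and 9.96 in ES cells, 10.70, 10.39 and 10.61 in DE and 10.63, 10.83 and 10.84 in AFE for Sdhd. The groups overlapped in all 3 genes; between ES and AFE the overlap in Sdhd was narrow, since ES 2 (10.66) lay just above AFE 1 (10.63). The widest change was that of Sdhd in AFE against ES at 0.43 ± 0.21 (95% interval -0.04 to 0.89, adjusted p = 0.125), and the other intervals also lay within 2-fold.

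Complex III had 6 tested genes, Uqcr10, Uqcr11, Uqcrb, Uqcrc1, Uqcrc2 and Uqcrh, with 0 calls in each comparison, beside the same 43.9%, 23% and 42.1% of all genes. The largest change was that of Uqcrc1, a core protein of the matrix side, in AFE against ES at -0.60 ± 0.22 (adjusted p = 0.0526). Uqcrc1 stood at 12.27, 12.23 and 12.02 in ES cells, 11.61, 11.77 and 12.14 in DE and 11.88, 11.63 and 11.23 in AFE, and all AFE arrays lay below all ES arrays. The other 5 genes changed by -0.27 to 0.18 over the 3 comparisons. The Rieske protein gene Uqcrfs1 was not above background on any array, which gives no value for a gene that respiring cells use.

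Complex IV, cytochrome c oxidase, held the 2 largest changes among chain genes above background in both groups, both in Cox7a1. Of 14 tested genes, 0 rose and 1 fell in DE against ES, 0 rose and 2 fell in AFE against DE, and 2 rose and 2 fell in AFE against ES. These are 7.14%, 14.3% and 28.6% called, beside 43.9%, 23% and 42.1% of all genes. Cox7a1, the isoform of heart and skeletal muscle, was at 9.15, 9.36 and 8.88 on ES 1, 2 and 3, 10.00, 9.92 and 9.05 on DE 1, 2 and 3, and 7.65, 7.61 and 8.34 on AFE 1, 2 and 3. All AFE arrays lay below all others, DE 1 and 2 lay above the ES arrays, and DE 3 lay among the ES arrays. Cox7a1 fell in AFE by 1.79 ± 0.30 against DE (3.46-fold, adjusted p = 0.00338) and by 1.26 ± 0.30 against ES (2.4-fold, adjusted p = 0.00838). Its change in DE against ES was 0.53 ± 0.30 (adjusted p = 0.183) with all arrays and 0.83 without DE 3 (adjusted p = 0.0227). DE 3 is the array with the endothelial signal given above, and the part of that signal in the lower Cox7a1 level of DE 3 was not tested. Sums of the 7 muscle genes were 1936 to 2570 in ES cells, 1390 to 1967 in DE and 2467 to 15569 in AFE, with at least 5 of 7 above background on each array. AFE 3 was the highest AFE array both in these sums and in Cox7a1, though Myl4 and Des were higher on AFE 1. The part of the muscle genes in the Cox7a1 level of AFE 3 was not tested. Myog, a factor of skeletal muscle, was above background on 1 ES array, 2 DE arrays and 2 AFE arrays.

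Cox7a2, the widely expressed isoform of the same subunit, was at 9.57, 9.83 and 9.90 on ES 1, 2 and 3, 9.96, 9.84 and 9.23 on DE 1, 2 and 3, and 9.80, 9.73 and 9.99 on AFE 1, 2 and 3. Its groups overlapped, and it was called in no comparison, with changes of -0.09 ± 0.22, 0.16 ± 0.22 and 0.07 ± 0.22 for DE and AFE, each against the stage before, and for AFE against ES. The 95% intervals of these 3 changes ran from -0.58 to 0.66 in all. Cox7a2l, a relative that joins complexes III and IV into supercomplexes, was at 11.41, 11.47 and 11.65 in ES cells, 11.61, 11.49 and 11.86 in DE and 11.34, 11.11 and 12.04 in AFE. The groups overlapped here too, and the spread was widest in AFE, where AFE 3 was highest.

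Cox4i2, the lung isoform of subunit 4, which responds to low oxygen in human and rodent cells, was at 4.68, 4.81 and 4.63 on ES 1, 2 and 3, 5.05, 5.74 and 4.94 on DE 1, 2 and 3, and 5.53, 5.63 and 6.89 on AFE 1, 2 and 3. It was above background on 0 of 3 ES arrays, 1 of 3 DE arrays (DE 2) and 3 of 3 AFE arrays, so that the AFE group, where it is high, was needed to pass the filter. Cox4i2 was at least 1.90-fold higher in AFE than in ES, the fold being taken against the lowest signal detected on each ES array (measured means 6.02 ± 0.76 and 4.71 ± 0.09, SD, n = 3, limma adjusted p = 0.0154, and 0.0288 with no filter on dim probes). AFE 3 was highest and also carried the highest sum of muscle genes, whose part in the Cox4i2 level was not tested. Without AFE 3 it was at least 1.40-fold higher (adjusted p = 0.0243). Cox4i1, the main isoform, was at 13.98, 14.17 and 13.77 in ES cells, 13.86, 13.76 and 14.18 in DE and 13.91, 13.89 and 13.92 in AFE, with changes of -0.07 to -0.03 and overlapping groups.

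Cox6b1, which lies on the outer face of the complex, was at 12.95, 13.03 and 12.84 in ES cells, 13.28, 13.08 and 13.77 in DE and 13.48, 13.58 and 13.78 in AFE. Its AFE arrays lay above all ES arrays, a rise of 0.67 ± 0.21 (adjusted p = 0.0255), and a second probe of Cox6b1 gave 0.59 ± 0.17 (adjusted p = 0.0177). All DE arrays of Cox6b1 also lay above all ES arrays. That change was not called at 0.44 ± 0.21 (adjusted p = 0.114), while the second probe passed at 0.47 ± 0.17 (adjusted p = 0.0441). Cox6b2, the testis isoform, was at 8.96, 9.22 and 8.999 in ES cells, 8.94, 8.72 and 8.44 in DE and 9.35, 9.10 and 10.58 in AFE. AFE 3 was more than 2-fold above its replicates, and Cox6b2 was not called in AFE against DE at 0.97 ± 0.35 (adjusted p = 0.0713). Without AFE 2, the lowest AFE array, Cox6b2 passed at 1.26 (adjusted p = 0.0427).

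Cox6a1, the form found outside muscle, was at 13.23, 13.11 and 12.84 in ES cells, 13.37, 13.31 and 13.63 in DE and 12.88, 12.86 and 12.93 in AFE. All DE arrays lay above all AFE arrays, and Cox6a1 fell in AFE against DE by 0.55 ± 0.17 (adjusted p = 0.0481). Its second probe fell short of the threshold at -0.53 ± 0.18 (adjusted p = 0.0673), and the call was lost without any 1 of 8 of the 9 arrays. Cox6a2, the muscle form, passed background on ES 2 and ES 3 alone, at 5.23 and 5.13, and was not tested. Cox8a, the main form of subunit 8, was at 13.73, 13.78 and 13.17 in ES cells, 13.94, 14.13 and 13.83 in DE and 13.75, 13.59 and 14.004 in AFE. Its DE arrays lay above all ES arrays and the other pairs of groups overlapped, with changes of -0.18 to 0.40, none called. Cox8c, the testis form, was above background on ES 1 and ES 2 only, at 6.52 and 6.09, and at 4.30 to 4.88 on the other 7 arrays. Cox8c was not tested, since the filter asks for 3 arrays. Cox8b, the muscle form of subunit 8, and Cox7b2 were not above background on any array.

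Outside the isoform sets, Cox5a and Cox7c, both single forms of their subunit, were called. Cox5a stood at 13.91, 13.84 and 13.66 in ES cells, 13.58, 13.74 and 13.37 in DE and 13.18, 13.22 and 12.83 in AFE. The AFE arrays lay below all ES and DE arrays, and Cox5a fell in AFE against ES by 0.72 ± 0.18 (adjusted p = 0.0112), while the step from DE did not pass at -0.49 ± 0.18 (adjusted p = 0.0859). Cox7c stood at 13.93, 14.05 and 14.01 in ES cells, 13.63, 13.58 and 13.20 in DE and 13.36, 13.48 and 13.68 in AFE. All ES arrays lay above the others, and Cox7c fell in DE by 0.53 ± 0.18 (adjusted p = 0.0378), with -0.49 ± 0.18 in AFE against ES at the edge of the threshold (adjusted p = 0.0503). Cox7b was at 9.002, 9.16 and 9.53 in ES cells, 9.37, 9.08 and 8.73 in DE and 8.91, 8.83 and 8.92 in AFE and was not called, although all AFE arrays lay below all ES arrays. Ndufa4, once counted to complex I, was at 13.68, 13.87 and 13.91 in ES cells, 13.82, 13.70 and 13.56 in DE and 13.81, 13.77 and 13.74 in AFE, with changes of -0.13 to 0.08.

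**Figure D3:**
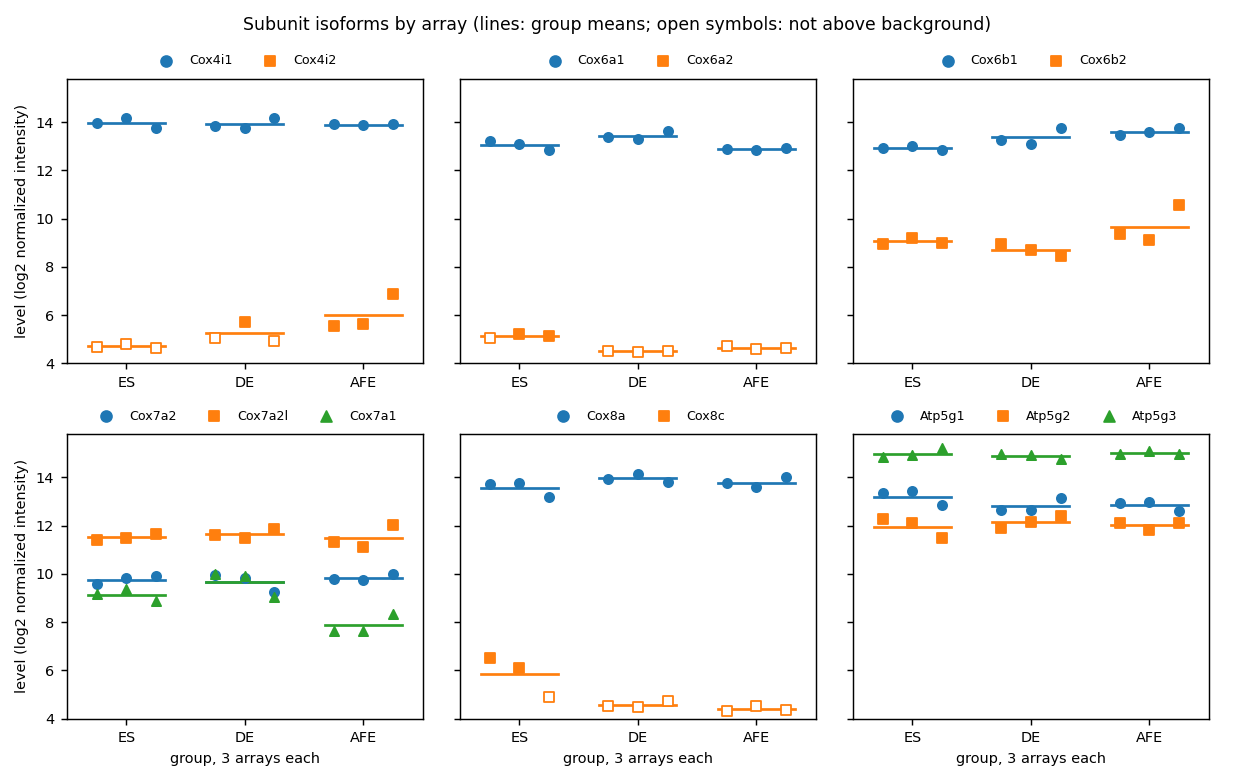
Log2 normalized intensity of isoforms of 6 subunits on each of the 9 arrays, with lines at group means and open symbols where a probe was not above background. Levels of different genes come from different probes and are not compared; within a gene, Cox7a1 is lowest on the 3 AFE arrays, Cox4i2 highest on AFE 3, and Cox8c above background on ES 1 and 2 only.

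Complex V, the ATP synthase, had 16 tested genes, of which 1 rose and 2 fell in DE against ES, 1 rose and 1 fell in AFE against DE, and 0 rose and 1 fell in AFE against ES. These are 18.75%, 12.5% and 6.25% called, beside 43.9%, 23% and 42.1% of all genes. Atp5l, subunit g of the membrane part, stood at 12.28, 12.32 and 12.24 on ES 1, 2 and 3, 11.99, 12.10 and 12.13 on DE 1, 2 and 3, and 11.53, 11.44 and 11.75 on AFE 1, 2 and 3. All AFE arrays lay below the others, and Atp5l fell by 0.71 ± 0.16 against ES (adjusted p = 0.00581) and by 0.50 ± 0.16 against DE (adjusted p = 0.0461). Atp5o, the stalk protein that confers sensitivity to oligomycin, stood at 10.00, 10.08 and 9.99 on ES 1, 2 and 3, 9.18, 9.01 and 9.43 on DE 1, 2 and 3, and 9.58, 9.85 and 10.09 on AFE 1, 2 and 3. Its 3 DE arrays lay below all others, so that Atp5o fell by 0.81 ± 0.19 in DE against ES (adjusted p = 0.00694) and rose by 0.63 ± 0.19 in AFE against DE (adjusted p = 0.0392). Atp5pb, subunit b of the same stalk, stood at 11.93, 12.10 and 11.86 in ES cells, 11.45, 11.38 and 11.66 in DE and 11.73, 11.70 and 11.48 in AFE, and fell in DE against ES by 0.47 ± 0.17 (adjusted p = 0.0464) with no overlap. Atp5d, of the central stalk, stood at 11.72, 11.57 and 11.37 in ES cells, 12.08, 12.06 and 12.09 in DE and 12.04, 11.68 and 11.82 in AFE, and rose in DE against ES by 0.52 ± 0.17 (adjusted p = 0.0317), the DE arrays lying above all ES arrays.

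Among the other F1 genes, Atp5a1, Atp5b, Atp5c1 and Atp5e, 0 were called, with changes of -0.38 to 0.39. Atp5e, the small epsilon subunit, had 1 array apart: ES 3 stood at 7.60 against 8.67 and 8.93 on ES 1 and 2. Atp5g1, Atp5g2 and Atp5g3 encode the same mature subunit c of the proton-carrying ring. Atp5g1 was at 13.36, 13.42 and 12.85 in ES cells, 12.66, 12.65 and 13.15 in DE and 12.96, 13.00 and 12.59 in AFE, with overlapping groups and a change of -0.39 ± 0.23 in DE against ES (adjusted p = 0.199). Atp5g2 was at 12.30, 12.10 and 11.48 in ES cells, 11.89, 12.17 and 12.39 in DE and 12.10, 11.81 and 12.12 in AFE and Atp5g3 at 14.83, 14.91 and 15.23 in ES cells, 14.96, 14.91 and 14.74 in DE and 14.99, 15.09 and 14.97 in AFE. Neither gene was called, with changes of -0.14 to 0.19. Without DE 3 and ES 3 together, Atp5g1 passed in DE against ES at -0.73 (adjusted p = 0.0155) and in AFE against ES at -0.54 (adjusted p = 0.0359).

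**Figure D4:**
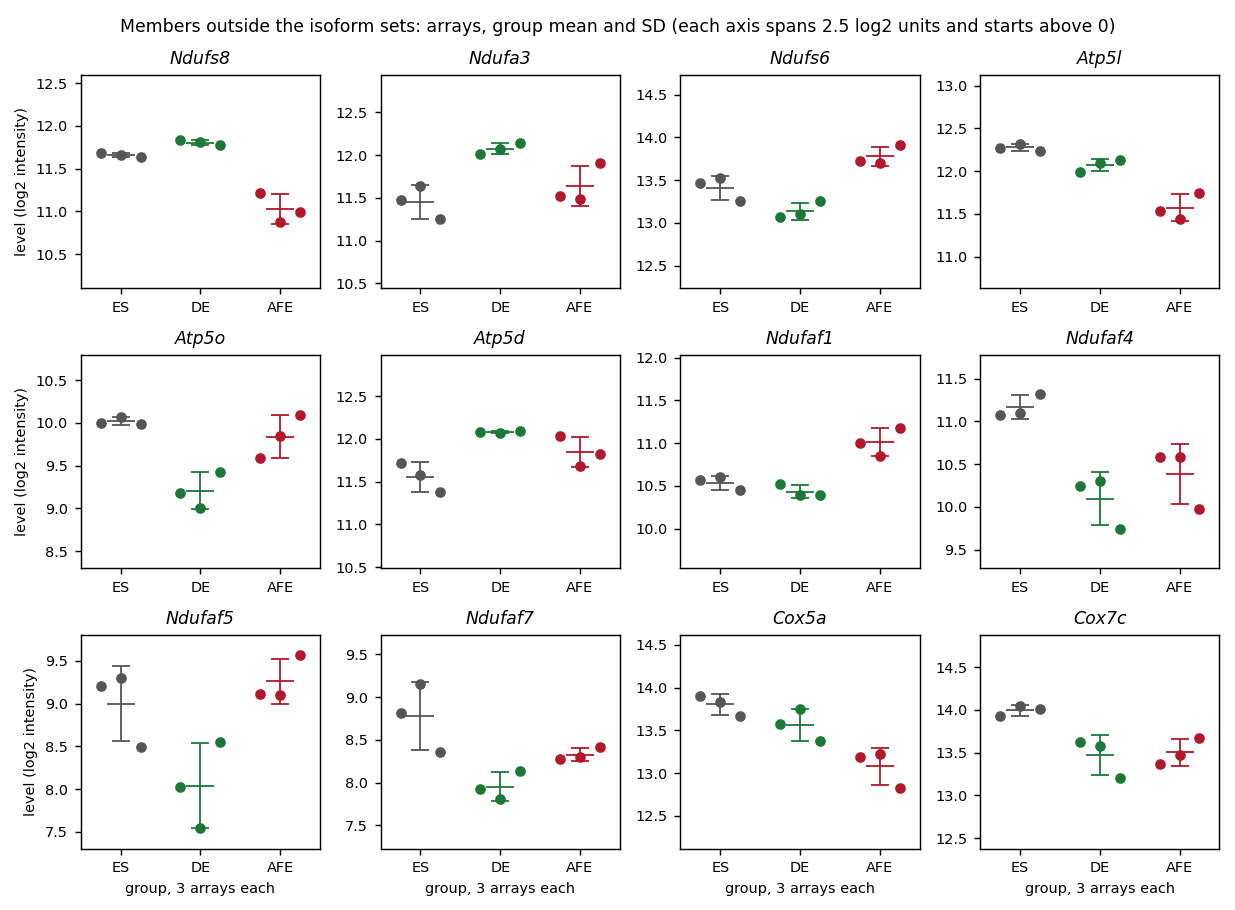
Levels (log2 intensity) on each array for 12 of the chain genes outside the isoform sets that were called in at least 1 comparison, with the group mean and SD (n = 3). Each axis spans 2.5 log2 units and does not start at 0. Ndufs8, Atp5l and Cox5a are lowest in AFE, Atp5o lowest in DE, and Ndufaf4 and Cox7c highest in ES. Ndufaf5 is lowest in DE by its group mean only, since ES 3 lies just below DE 3.

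Replicate 3 of each group was also set against the other pair. On DE 3, 0 of 78 chain genes lay 2-fold or more from the mean of DE 1 and 2, beside 15.6% of all genes. On AFE 3 these were 4 of 78 (Cox4i2, Cox6b2, Ndufa6 and Ndufab1, 5.13% beside 9.49%), and on ES 3 it was Atp5e alone (1.28% beside 4.31%). The median absolute distance of replicate 3 from the other pair was 0.25 in DE, 0.23 in AFE and 0.23 in ES for chain genes, against 0.11, 0.10 and 0.11 between replicates 1 and 2.

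Of the 26 called changes of named chain genes, 10 kept their call when any 1 of the 9 arrays was left out. These were Cox7a1 and Ndufs8 in both AFE comparisons, Atp5l, Cox4i2, Cox5a and Ndufv3 in AFE against ES, and Atp5o and Ndufaf4 in DE against ES. Cox4i2 was among the genes tested only through its AFE arrays, where it is high (limma adjusted p = 0.0288 with no filter on dim probes). Without single arrays the adjusted p of Cox7a1 in AFE against DE ran from 3.34e-04 to 0.0167, and that of Ndufs8 from 0.00749 to 0.0332. The other 16 changes kept their direction but lost the call without at least 1 array. Ndufaf7 in DE against ES missed the threshold without ES 2 (adjusted p = 0.055). The call of Ndufb7 in AFE against ES was lost without ES 1 or AFE 2 (adjusted p = 0.0601 to 0.068). Without DE 1 or DE 2, Ndufs6 in AFE against DE no longer passed (adjusted p = 0.0717 to 0.0765). Ndufa3 in DE against ES missed the threshold without ES 1, ES 3 or DE 2 (adjusted p = 0.0575 to 0.0644). The call of Ndufaf5 in AFE against DE was lost without DE 1, DE 2 or AFE 3 (adjusted p = 0.0539 to 0.0698). Without ES 2, ES 3, DE 1 or DE 2, Atp5d in DE against ES no longer passed (adjusted p = 0.0787 to 0.0852). Ndufaf5 in DE against ES missed the threshold without ES 1, ES 2, DE 1 or DE 2 (adjusted p = 0.0704 to 0.105).

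The call of Ndufaf4 in AFE against ES was lost without ES 1, ES 2, ES 3 or AFE 3 (adjusted p = 0.0509 to 0.0673). Without ES 1, ES 2, ES 3, AFE 2 or AFE 3, Cox6b1 in AFE against ES no longer passed (adjusted p = 0.0555 to 0.0683). Atp5o in AFE against DE missed the threshold without ES 1, ES 2, DE 1, DE 2, AFE 2 or AFE 3 (adjusted p = 0.0645 to 0.142). The call of Ndufaf1 in AFE against DE was lost without ES 1, ES 2, DE 1, DE 2, AFE 1 or AFE 3 (adjusted p = 0.0506 to 0.0967). Without ES 1, ES 2, ES 3, DE 1, DE 2, AFE 1 or AFE 2, Atp5pb in DE against ES no longer passed (adjusted p = 0.0541 to 0.157). Atp5l in AFE against DE missed the threshold without ES 1, ES 2, DE 1, DE 2, DE 3, AFE 1 or AFE 2 (adjusted p = 0.0616 to 0.143). The call of Cox7c in DE against ES was lost without ES 1, ES 2, ES 3, DE 1, DE 2, DE 3 or AFE 2 (adjusted p = 0.0522 to 0.111). Without ES 1, ES 2, ES 3, DE 1, DE 2, AFE 1 or AFE 3, Ndufaf1 in AFE against ES no longer passed (adjusted p = 0.059 to 0.0896). Cox6a1 in AFE against DE missed the threshold without ES 1, ES 2, DE 1, DE 2, DE 3, AFE 1, AFE 2 or AFE 3 (adjusted p = 0.0618 to 0.121).

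Lists of genes that serve the chain without being part of it are given by the same fit. Of 71 tested genes of the mitochondrial ribosome, which translates the subunits encoded in the mitochondrion, 2 rose and 24 fell in DE against ES, with a median of -0.42 beside 0.01 over all genes. This is 36.6% called, beside 43.9% of all genes, and 33.8% fallen, beside 21.7%. In AFE against DE 9 rose and 3 fell (median 0.08, 16.9% called beside 23%), and in AFE against ES 4 rose and 21 fell (median -0.26, 35.2% beside 42.1%). Mrpl1 stood at 11.22, 11.52 and 11.37 in ES cells, 9.61, 9.58 and 10.00 in DE and 10.48, 10.82 and 10.90 in AFE. It was lowest on the DE arrays, with a fall by 1.64 ± 0.19 (adjusted p = 1.79e-04). Mrps18b and Mrps5 fell in DE against ES by 1.28 ± 0.19 and 1.28 ± 0.17.

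Of 10 tested assembly genes of complexes I, II and V outside the Ndufaf series, 0 rose and 3 fell in DE against ES (30% called beside 43.9% of all genes). Ecsit, of the same assembly complex as Ndufaf1, was at 10.61, 10.81 and 10.50 in ES cells, 8.94, 8.56 and 9.03 in DE and 9.84, 10.05 and 9.90 in AFE. The 3 groups of Ecsit did not overlap, with a fall by 1.79 ± 0.18 in DE (adjusted p = 7.67e-05) and a rise of 1.08 ± 0.18 in AFE against DE (adjusted p = 0.00359). The others were Timmdc1, which helps build the membrane arm, by 1.01 ± 0.22, and Foxred1, another complex I factor, by 0.63 ± 0.16. In AFE against DE 2 of the 10 rose and 1 fell (30% beside 23%), and in AFE against ES 1 rose and 3 fell (40% beside 42.1%).

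Of 12 tested genes of cytochrome c, cytochrome c1 and the assembly of complexes III and IV, 0 rose and 5 fell in DE against ES (41.7% called, near the 43.9% of all genes), among them Cox18, an insertase for a mitochondrially encoded subunit, by 1.47 ± 0.23 (adjusted p = 7.69e-04). In AFE against DE 2 of these genes rose and 0 fell, Cox18 by 0.93 ± 0.23 among them (16.7% beside 23%), and in AFE against ES 0 rose and 3 fell (25% beside 42.1%). Among 13 tested regulators 0 rose and 6 fell in DE against ES (46.2% called, near the 43.9% of all genes), 3 rose and 1 fell in AFE against DE (30.8% beside 23%), and 0 rose and 3 fell in AFE against ES (23.1% beside 42.1%). Gabpa, whose ETS motif was searched above, was at 9.03, 9.17 and 9.20 in ES cells, 7.11, 6.69 and 6.92 in DE and 7.46, 7.67 and 6.64 in AFE. All ES arrays lay above the rest, and Gabpa fell by 2.23 ± 0.26 in DE (adjusted p = 1.73e-04). Tfb1m, which methylates the small mitochondrial ribosomal RNA, fell by 1.35 ± 0.22 in DE and rose by 1.17 ± 0.22 in AFE against DE. Esrrb, an ERR receptor and a factor of ES cells, fell by 7.38 ± 0.49 in DE.

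In the citric acid cycle 1 of 12 tested genes rose and 2 fell in DE against ES (25% called, beside 43.9% of all genes and 10.3% of the chain, differences that were not tested). In AFE against DE 1 rose (8.33% called beside 23% of all genes), and in AFE against ES 0 were called (beside 42.1%). Cs, citrate synthase, rose by 0.67 ± 0.19 in DE (adjusted p = 0.0185), and the succinyl-CoA ligase gene Suclg2 fell by 0.63 ± 0.16 and rose again by 0.65 ± 0.16 in AFE. Upstream of the cycle, 0 of 8 tested genes of pyruvate dehydrogenase and its regulation rose and 2 fell in DE against ES (25% beside 43.9%): Pdhb, a subunit of the enzyme, by 1.22 ± 0.17 and Pdk3, a kinase that inhibits it, by 1.18 ± 0.16. In AFE against DE Pdk3 rose by 1.38 ± 0.16 and Pdk4 fell (25% of the 8 called, near the 23% of all genes). Pdk4 was above background on 0 of 3 AFE arrays, so it passed the filter only through arrays of the other groups, and no fold is given. In AFE against ES 0 rose and 3 fell (37.5% beside 42.1%). Of the 2 tested carriers, the phosphate carrier Slc25a3 fell in AFE against DE by 0.54 ± 0.17, and the ADP/ATP carrier Slc25a5 fell in AFE against ES by 1.20 ± 0.28. That is 1 of 2 (50%) called in each of these comparisons, beside 23% and 42.1% of all genes. In DE against ES 0 of the 2 carriers were called, beside 43.9%. No probe of a mitochondrially encoded subunit was found by its symbol.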

How the data were processed

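RNA of 9 samples in 3 groups of 3 was measured on Illumina bead arrays, grouped by the sample labels. The authors deposited intensity values, which are linear bead signals of each probe that had not been normalized, as the file headers and the values show. Beside each stands a deposited detection p-value against the negative control beads, per the file headers. The authors also deposited log2 values, made in a way not given in the sources used here, which served as an alternative. In that table the column labelled ES replicate 2 ranked the probes as no intensity column (best Spearman correlation 0.926, with DE 2), the column labelled ES replicate 3 ranked them as the intensities of ES 2, and 7 columns ranked them as their own sample.

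The files were analysed in R 4.3.3 with limma 3.58.1. Background was set through the detection p-values as in neqc, with an offset of 16, followed by quantile normalization and log2. The filter kept 15090 probes whose detection p was under 0.05 on 3 or more arrays, and a gene was represented by its brightest probe. Detected probes numbered 12628 to 14352 per array, median intensities were 93.9 to 151, and the number of arrays limits the precision. A linear model of limma with eBayes was fitted to all 9 arrays, with Benjamini-Hochberg adjustment over 10251 genes. Every adjusted p is of that fit, each change is a log2 difference of group means ± SE (n = 3), and "rose" or "fell" means an adjusted p under 0.05. The test was checked on simulated data. Figures were drawn with matplotlib 3.10.9.

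The members, the lists of related genes and the motifs were chosen with earlier results of these data known. Named with a value per array are detected isoforms, complex II and, per complex and comparison, the 3 largest called changes; other genes named singly were chosen after their values were seen. Promoters are from RefSeq (GRCm38.p6). The lists are the citric acid cycle, pyruvate dehydrogenase and its regulation, regulators, cytochrome c with assembly of complexes III and IV, assembly of complexes I, II and V, carriers, the mitochondrial ribosome, and markers of ES cells, endoderm, foregut, endothelium, fibroblasts and muscle. Alternatives changed the background correction, scaling, filter, choice of probe, arrays fitted, moderation and replicate block. Replicate numbers are not paired: deviations of same-numbered arrays correlated at -0.14 to 0.07.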

Additional observations from a re-analysis of the deposited data

How the results depend on the processing

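Under the settings fitted gene by gene, none of the 26 called changes of named genes changed direction. Of the 46 that were not called, 25 took the other sign under at least 1. The fit of each probe by itself is not in these counts, and in it another detected probe of Ndufv3 took the other sign in AFE against ES. Of 26 called changes of named genes, 6 kept their call under every setting fitted gene by gene. They were Cox7a1 and Ndufs8 in both AFE comparisons, and Atp5l and Cox4i2 in AFE against ES. Cox4i2 passed the filter through its AFE arrays alone and has no value under the filter on 9 arrays. Its limma adjusted p was 0.0288 without a filter. Of 46 named changes that were not called, 5 were called under some setting fitted gene by gene. The number of arrays limits what can be called, and depth in reads does not apply. In AFE against ES, where the main fit called 2342 of all genes risen and 1977 fallen, 8 chain genes rose and 8 fell without background correction (beside 2262 and 2009). With a background set without detection p-values 8 fell (beside 2015). Without a filter, which brings in more genes, 8 of 85 chain genes fell (beside 1954). With an intensity trend and robust moderation 8 rose and 8 fell (beside 2365 and 2029). Median scaling gave 1 risen and 2 fallen in DE against ES, beside 2481 and 1763 of all genes. It gave 1 risen in AFE against DE (median -0.061) beside 652, and 2 risen in AFE against ES (median -0.17) beside 1764. In the F-test 10 were called under it, 8 of them among the 16 (12.8% of the chain beside 51.1% of all genes). With cyclic loess 2 rose in AFE against DE (beside 1121 of all genes) and 8 fell in AFE against ES (beside 2104). The authors' processed values gave 0 risen and 1 fallen in DE against ES, beside 361 and 306 of all genes. They gave 1 and 2 in AFE against DE (beside 392 and 491) and 1 risen in AFE against ES (median -0.15) beside 699. In the F-test they gave 5 (6.41% of the chain). The share of all genes called in it also dropped, from 55.7% in the main fit to 17.7%. Without the authors' unmatched ES column, a choice made after seeing the data, the chain counts were 0 and 10 (median -0.19), 2 and 2, 1 risen (median -0.14) and 10. Over all genes they were 1916 and 1873, 933 and 1111, 1688 risen and 48.3% in the F-test. With each probe by itself 2 of 95 chain probes fell in AFE against DE (beside 1431 of all probes tested). With only the 6 arrays compared 2 rose and 2 fell there (beside 902 and 720 of all genes). Without DE 3 and ES 3 together, also chosen after seeing the data, 0 rose and 10 fell in DE against ES and 10 fell in AFE against ES. Over all genes these counts were 2545, 2394 and 2353. The replicate block gave 3 fallen in DE against ES, 2 risen and 2 fallen in AFE against DE and 9 in the F-test (11.5%). Over all genes it gave 2127, 1126, 971 and 52.4%. But same-numbered arrays did not deviate together, so the numbers do not pair the arrays. Leaving out 1 array at a time gave 0 to 3 risen and 2 to 7 fallen in DE against ES, 0 to 4 and 2 to 5 in AFE against DE, 2 to 5 and 4 to 7 in AFE against ES, and 7 to 18 in the F-test (8.97% to 23.1%). Over all genes it gave 1704 to 2601 and 1722 to 2442, 742 to 1747 and 679 to 1488, 1754 to 2804 and 1520 to 2358, and 44.8% to 64.7%. The cause of these differences was not tested.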
